A study of Mus musculus with 6 samples.

Results

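The TRIM genes are a family of ubiquitin ligase genes, taken here as the protein-coding genes of GENCODE M21 whose symbol begins with Trim and a digit. The count table held 68 of them among 55487 genes. Of these, 31 reached 0.5 CPM, the count scaled to a common library size, in at least 3 of 6 libraries and are described in full, and 37 did not. RNA-seq was made from 6 samples of the mouse macrophage line RAW264.7, whose cells can turn into bone-resorbing osteoclasts, and every sample was treated with RANKL and M-CSF, which promote that step. The 3 control libraries carry the genotype label wt and come from 1 unedited line. The other 3 carry the genotype label RhoA knockout and were made with SMART-Cas9 aimed at RhoA, a small GTPase of the actin cytoskeleton, with the aim of learning how its loss in macrophages bears on bone destruction in rheumatoid arthritis. No library had Cas9 without the RhoA target, so an effect of Cas9 and one of the edit cannot be told apart, and nothing in the labels says whether the edited cells were 1 clone or many. Separate cultures are not stated for the samples within a group, and p-values therefore reflect only how these libraries scatter, which may be technical.

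TRIM proteins share an N-terminal tripartite motif of a RING finger, which binds the ubiquitin-loaded E2 enzyme, 1 or more B-boxes, and a coiled coil through which they pair. What follows the coiled coil sets the class and the target, most often a PRY-SPRY domain, and otherwise NHL repeats, a PHD finger with a bromodomain, or other folds. Several members are switched on by type I interferon and act in antiviral defence in macrophages, either on viral proteins or by tuning the RIG-I-like receptors and the NF-kB pathway, while others act in chromatin, at microtubules or at membranes.

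The 5 promoter stretches below are printed to show a sequence feature that some members of the family carry. It played no part in choosing the members, but the stretches were picked with the feature known. The letters searched were GAAA, 2 bases of any kind and GAAA again, the core of the interferon-stimulated response element, on either strand, so that a match on the opposite strand reads TTTC, 2 bases and TTTC. The sequences are those of RefSeq on GRCm38.p6, given 5′ to 3′ on the strand of the gene, with the matches in capitals. Each is 120 bases long and lies before the RefSeq and the GENCODE start of its gene. Trim30a lies at chr7:104465194-104465313 and Trim30d at chr7:104507850-104507969, both on the minus strand. Trim12c lies at chr7:104353363-104353482 on the minus strand, Trim26 at chr17:36836936-36837055 on the plus strand and Trim25, shown as a member with no match, at chr11:88999256-88999375 on the plus strand.
Trim30a: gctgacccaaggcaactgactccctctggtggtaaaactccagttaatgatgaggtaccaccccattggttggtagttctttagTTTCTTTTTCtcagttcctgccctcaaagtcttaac
Trim30d: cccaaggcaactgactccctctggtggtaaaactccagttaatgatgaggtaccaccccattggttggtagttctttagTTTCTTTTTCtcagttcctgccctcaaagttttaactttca
Trim12c: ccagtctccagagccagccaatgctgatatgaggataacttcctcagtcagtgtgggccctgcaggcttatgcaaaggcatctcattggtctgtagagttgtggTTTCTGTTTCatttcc
Trim26: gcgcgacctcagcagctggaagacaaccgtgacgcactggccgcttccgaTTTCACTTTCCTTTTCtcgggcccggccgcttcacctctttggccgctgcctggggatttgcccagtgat
Trim25: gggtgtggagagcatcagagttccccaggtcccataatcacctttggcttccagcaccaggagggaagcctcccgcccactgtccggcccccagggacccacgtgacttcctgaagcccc

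The table of promoters held windows of 300 bases, 250 before and 50 after a RefSeq start, for 22 of the 31 members. Of these, 6 had at least 1 match, namely Trim30a, Trim30d, Trim12c, Trim26, Trim21 and Trim2, which is 27.3%. Over all 27025 genes with a window the share was 3.99%. Over all TRIM genes with a window, at any level, 9 of 53 had a match. The further ones were Trim12a, Trim34a and Trim5. They lie in 1 run of 10 TRIM genes on chromosome 7 with Trim30a, Trim30d and Trim12c, so matches there may not be independent cases. In Trim26 the capitals mark 2 matches that overlap, and in Trim21 another overlapping pair began at bases 14 and 20 of the transcript. The match of Trim2 began at base 29 of the transcript and was found in 1 of its several windows. The windows of Trim30a and Trim30d were identical at 276 of 295 aligned bases, 93.6%, so these members are copies and not independent cases. A match is a string of letters and was not tested for binding, and the absence of one in Trim25 concerns this window alone.

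The libraries held 60198645 to 81830819 counts, at which 3 counts correspond to 0.0367 to 0.0498 CPM. In each group the library numbered 3 stood apart, with a chi-square per degree of freedom of 80.85 to 100.9 against its partners, where the first and second libraries gave 20.65 in the control and 26.25 in the other group. Of 10 macrophage markers 9 were measured, Mertk being at or near 0, and their summed level was 18200 to 20100 CPM in the controls and 81100 to 114000 CPM in the other libraries, most of it Lyz2. The list moved both ways, with 3 markers higher (Lyz2, Cd68 and Csf1r) and 5 lower (Itgam at -2.01, Fcgr1 at -1.91, Cd14 at -0.58, Adgre1 at -0.51 and Ptprc at -0.39) on the log2 scale by edgeR, and a median of -0.39. Of 10 osteoclast markers 7 were measured at a summed 24.3 to 27.7 CPM in the controls and 27.3 to 27.5 CPM in the others, and Calcr and Oscar were at 0. Behind these sums Mmp9 at -2.06, Acp5 at -1.43 and Dcstamp at -0.77 were lower and Ctsk at 1.10 and Atp6v0d2 at 0.62 higher on the log2 scale by edgeR. Of the measured macrophage and osteoclast markers, 88.9% and 71.4% passed an edgeR adjusted p of 0.05. Over all genes tested the share was 43.2%. The part of either list in the results on TRIM genes was not tested. Markers of fibroblasts, T cells, B cells, epithelium, endothelium and neutrophils summed to at most 1.44 CPM per list in any library. Rhoa itself was not lower under its knockout label. It stood at 21.4, 25.8 and 24.4 CPM in the controls and at 34.2, 29.9 and 31.5 CPM in the libraries labelled RhoA knockout (log2 fold change 0.41 ± 0.12, SE; edgeR adjusted p = 0.0136), a call lost without control replicate 1 or knockout replicate 1 (0.34 each, adjusted p of 0.0645 and 0.0741). Directions are therefore given by label, as libraries labelled RhoA knockout relative to control.

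Between the groups 8 TRIM genes fell and 3 rose, and 20 of the 31 did not pass the test. Trim25, Trim30a, Trim30d, Trim3, Trim8, Trim33, Trim45 and Trim56 were lower, and Trim14, Trim35 and Trim65 were higher, at an edgeR adjusted p of 0.05 over 12930 genes. The share of members called was 35.5%, against 43.2% of all genes tested. Of all genes 22.3% were lower and 21% higher. The difference between these shares was not tested. The members' median log2 fold change was -0.29, where that of all genes was -0.03, and it was -0.47 without knockout replicate 1, -0.13 with the replicate number as a block, -0.15 with the length correction and -0.0896 with library totals alone. The groups did not overlap at 16 members, 10 with the libraries labelled RhoA knockout below the controls and 6 above, while 55.8% of all genes had groups that did not overlap. In bulk RNA, fewer cells that express a gene and less RNA per cell cannot be told apart. Library scaling and transcript length bear on the balance. With library totals alone the calls among members were 6 lower and 3 higher, the median of all genes shifted to 0.15, and 59.8% of calls over all genes were higher against 48.5% with TMM scaling. With a correction for exon length the calls were 5 lower and 4 higher, and with both libraries numbered 3 left out they were 7 lower and 3 higher. None of the 11 called members changed sign under any of the 15 alternative fits.

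**Figure D1:**
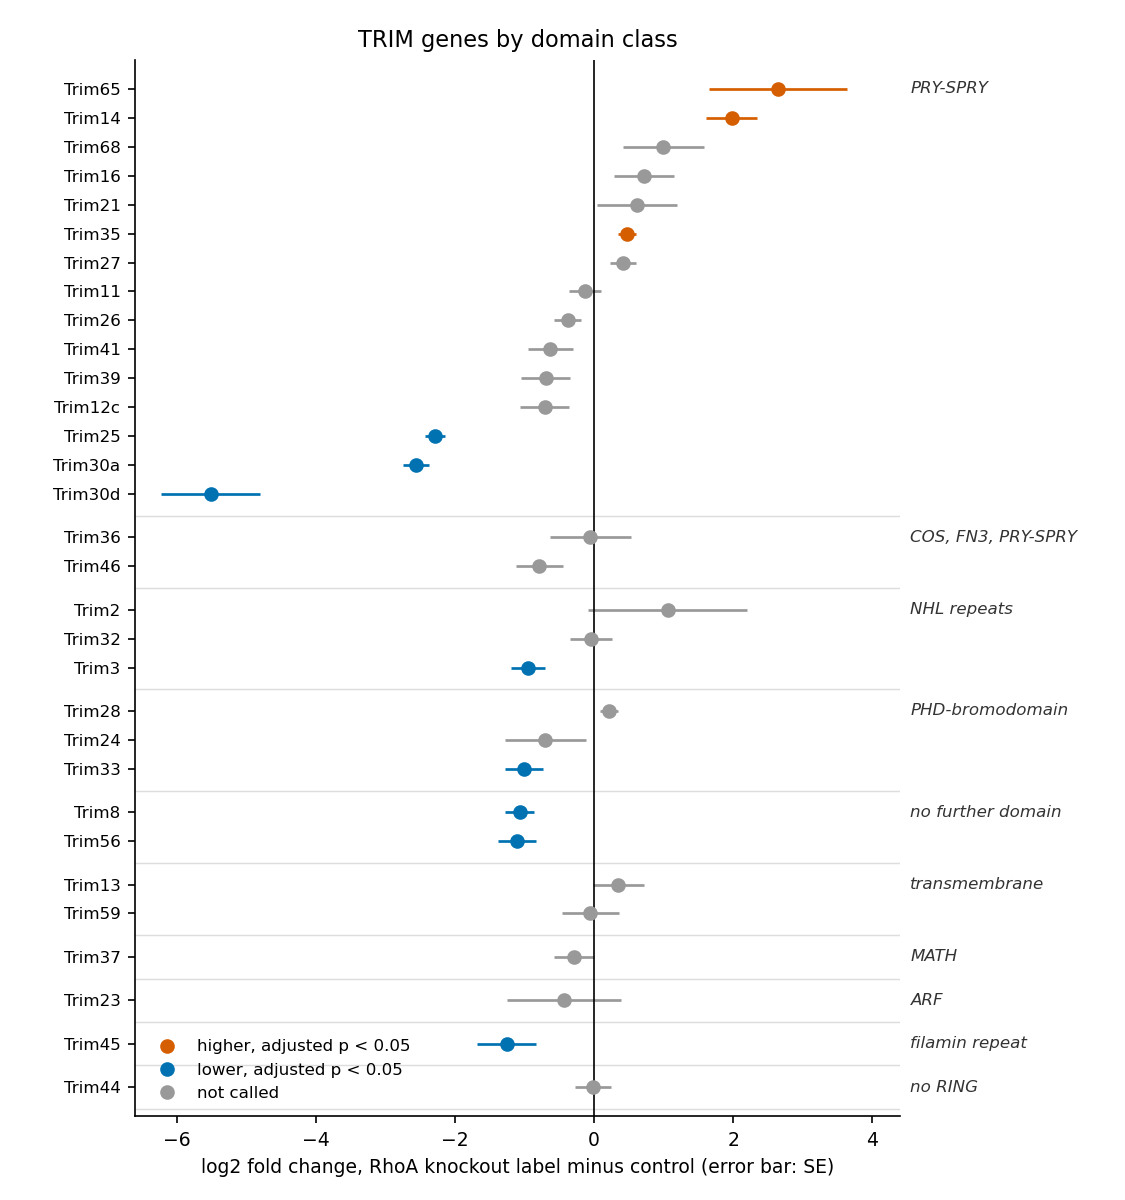
Log2 fold change of the 31 TRIM genes, libraries labelled RhoA knockout minus control, as points with SE bars, grouped by domain class (named at the right); colour marks the edgeR call at an adjusted p of 0.05. All 3 genes called higher sit in the PRY-SPRY class, the largest with 15 of the 31 genes, which also holds the 3 lowest values. The 8 genes called lower lie in 5 classes, and the difference between classes was not tested.

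The summed level of the family was lower in the libraries labelled RhoA knockout, and Trim30a and Trim25 made up most of the gap. Summed over the 31 members, the level was 204.8, 219.9 and 184.2 CPM in the control libraries and 135.3, 129.6 and 119.3 CPM in the libraries labelled RhoA knockout. Trim25 and Trim30a together made up 83.16, 92.76 and 66.7 CPM of this in the controls and 15.27, 14.94 and 14.73 CPM in the others. The 29 remaining members summed to 121.6, 127.2 and 117.5 CPM in the controls and to 120.1, 114.6 and 104.6 CPM in the others. Those sums overlapped between the groups, whereas the sums of the pair lay far apart.

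Trim30a, on the minus strand of chromosome 7 (ENSMUSG00000030921.17, 104409025 to 104465193 on GRCm38), encodes an interferon- and Toll-like-receptor-induced protein that restrains NF-kB signalling by acting on the adaptors TAB2 and TAB3. It stood at 49.4, 52.1 and 32.8 CPM in the controls and at 7.88, 8.45 and 6.38 CPM in the libraries labelled RhoA knockout. Control replicate 3 was the lowest of its group and still lay well above every library of the other group. The log2 fold change was -2.56 ± 0.18 (SE), a 5.91-fold fall, with an edgeR adjusted p of 6.52e-07. Its neighbour Trim30d (ENSMUSG00000057596.13, 104470014 to 104507849 on the same strand), a related gene of the same cluster, stood at 6.18, 4.41 and 4.21 CPM in the controls and at 0.219, 0 and 0.105 CPM in the others. Knockout replicate 2 held no count, which at its depth allows up to 0.0377 CPM. The fitted log2 fold change of Trim30d was -5.51 ± 0.71 (SE, edgeR adjusted p = 0.000114), and it was -6.61 without knockout replicate 1 and -4.92 without knockout replicate 2. By summed counts, 983 in the controls against 26, the ratio between the groups was 48.1 with a 95% exact binomial interval of 32.6 to 74, which covers counting error only. Trim30d was at 0.5 CPM only in control libraries, so it entered the described members through the group in which it was high. Trim30a and Trim30d matched at 97.67% identity over 301 bp of transcript, and how reads that fit both were counted is not given in the sources used here, so the level of Trim30d is uncertain.

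These genes belong to a run of 10 TRIM genes at 104218793 to 104507849 on chromosome 7, of which Trim12c was the only other member at a describable level. Trim12c stood at 4.6, 4.32 and 2.65 CPM in the controls and at 2.95, 1.24 and 2.91 CPM in the others. The groups overlapped, since control replicate 3 lay below knockout replicates 1 and 3 (log2 fold change -0.71 ± 0.35, SE; edgeR adjusted p = 0.13). Trim34a, Trim34b, Trim5, Trim30b and Trim30c had at most 50 counts in any library, and Trim6 and Trim12a had none. Transcripts of Trim12c matched Trim12a at 96.53% identity over 981 bp and Trim5 at 95.04% over 2458 bp. How reads that fit several of these genes were counted is not given in the sources used here, so the levels of Trim12c, Trim12a and Trim5 are uncertain. The interferon-response letters in the promoters of Trim30a, Trim30d and Trim12c thus went with a strong fall at the first pair and a value within the spread at Trim12c. Of the 6 members with the letters 2 were lower, the copies Trim30a and Trim30d, and 4 did not pass the test. Of the 22 members with a window 5 were lower, and of all genes tested 22.3%. The higher members Trim14, Trim35 and Trim65 had no window, so no member with the letters could be called higher. A link between the letters and the direction was not tested.

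Trim25 (ENSMUSG00000000275.16, chromosome 11, 88999376 to 89020293, plus strand) encodes the interferon-induced ligase that attaches ubiquitin to RIG-I and is a partner of the zinc finger antiviral protein. It stood at 33.8, 40.7 and 33.9 CPM in the controls and at 7.38, 6.5 and 8.35 CPM in the libraries labelled RhoA knockout. Each group was even, and the groups lay far apart. The log2 fold change was -2.29 ± 0.14 (SE), a 4.88-fold fall, with an edgeR adjusted p of 2.14e-07, the smallest among the members. Trim56 (ENSMUSG00000043279.9, chromosome 5, 137105644 to 137116209), an antiviral ligase with no recognised domain after its coiled coil, stood at 3.19, 5.98 and 4.39 CPM in the controls and 2.07, 2.23 and 1.99 CPM in the others. Its lowest control lay above all 3 libraries labelled RhoA knockout. The log2 fold change was -1.11 ± 0.28 (SE, edgeR adjusted p = 0.00638), but -0.67 with an adjusted p of 0.0667 after the length correction.

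Not every member with a role in interferon signalling was lower. Trim14 (ENSMUSG00000039853.18, chromosome 4, 46493781 to 46536141), a protein without a RING that works with the adaptor MAVS at mitochondria, stood at 0.492, 0.581 and 1.04 CPM in the controls and at 3.01, 2.65 and 2.63 CPM in the libraries labelled RhoA knockout. All 3 of these lay above the highest control, control replicate 3. The log2 fold change was 1.98 ± 0.37 (SE), a 3.94-fold rise, with an edgeR adjusted p of 0.000921. The exons of Trim14 overlap 1356 bp of the exons of Nans on the opposite strand. Nans held up to 98 times as many counts as Trim14 in a library and had a log2 fold change of 1.06 ± 0.13 itself (SE, edgeR adjusted p = 4.05e-05), and whether counting used strand is not given in the sources used here. The part of Nans reads in the rise of Trim14 was not tested. Trim21, the cytosolic antibody receptor, was near the limit of description at 0.622, 0.478 and 0.305 CPM in the controls and 0.731, 0.481 and 0.96 CPM in the others. Its groups overlapped (log2 fold change 0.62 ± 0.58, SE; edgeR adjusted p = 0.423), so no change was detectable at this depth.

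Trim65 (ENSMUSG00000054517.9, chromosome 11, 116121846 to 116131128), a ligase that acts on the RNA sensor MDA5, had the largest fitted rise and the least certain one. It stood at 0.48, 0.0683 and 0 CPM in the controls, from 37, 4 and 0 counts, and at 1.13, 1.75 and 0.697 CPM in the libraries labelled RhoA knockout. The groups did not overlap, but the gene was at 0.5 CPM in the latter only and entered the described members through them. The log2 fold change was 2.65 ± 0.99 (SE) with an edgeR adjusted p of 0.0491, and 5.06 without control replicate 1. The call was lost when any 1 of the other 5 libraries was left out, with both libraries numbered 3 left out and with no low-count filter, with an adjusted p of up to 0.177. By summed counts the ratio was 5.79 with a 95% exact binomial interval of 4.17 to 8.24, for counting error only. The neighbouring gene Trim47 overlaps 225 bp of its exons on the same strand and held 29, 3 and 0 counts in the controls and 29, 73 and 46 in the others, so reads of these genes cannot be told apart there.

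Trim35 (ENSMUSG00000022043.19, chromosome 14, 66297031 to 66311424), a regulator of the glycolytic enzyme PKM2 and of IRF7, stood at 15.1, 18.6 and 19 CPM in the controls and at 24.6, 23.1 and 25.2 CPM in the libraries labelled RhoA knockout. The rise was small and even, with every one of the latter above every control (log2 fold change 0.47 ± 0.13, SE; edgeR adjusted p = 0.0107). The other PRY-SPRY members did not pass the test. Trim27, a nuclear and cytoplasmic ligase, had a log2 fold change of 0.42 ± 0.18 (SE, edgeR adjusted p = 0.088), with groups that did not overlap. It passed with the length correction at 0.59 and an adjusted p of 0.0182. Trim26, which carries the 2 overlapping matches in its promoter, was at -0.38 ± 0.19 (SE, adjusted p = 0.126), Trim41, which shares 31 bp of exon with the far more abundant Rack1 on the opposite strand, at -0.63, Trim39 at -0.69 and Trim11 at -0.13. Trim16, which lacks a RING and acts at damaged lysosomes, was at 0.71, and Trim68 at 1.00. In all, 3 of 15 members of this class were higher, 3 lower and 9 not called, with values from -5.51 to 2.65. Of the 16 members of other classes 5 were lower and none was higher by edgeR or by DESeq2 over all 6 libraries, none having an unadjusted p under 0.05 in that direction, though Trim28 was called higher by edgeR without knockout replicate 3. The difference between the classes was not tested, and of all genes 21% were higher and 22.3% lower.

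**Figure D2:**
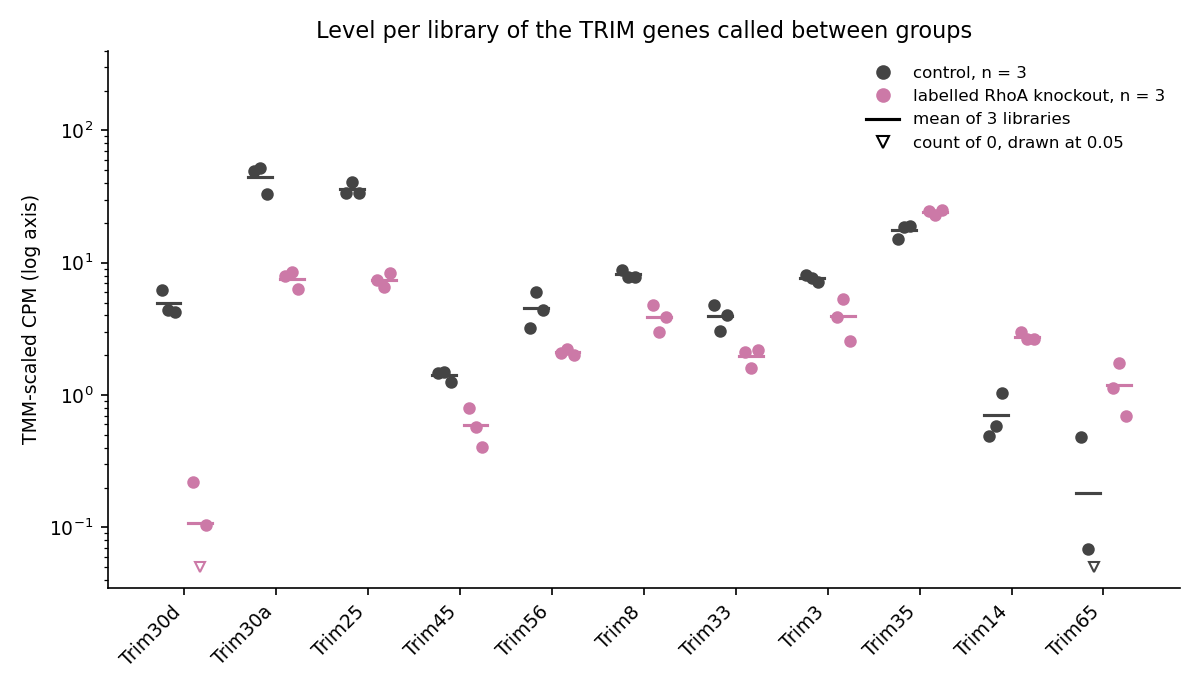
TMM-scaled CPM (log axis) of the 11 called TRIM genes in each library, controls in grey and libraries labelled RhoA knockout in pink, n = 3 each, with the mean as a line and counts of 0 drawn as open triangles at 0.05. The groups are separate at all 11 genes, by a wide margin at Trim30d, Trim30a and Trim25. These genes were picked by the test on the same libraries, so their separation adds no support. Of all genes tested, 55.8% had groups that did not overlap. The libraries with 0 counts are knockout replicate 2 for Trim30d and control replicate 3 for Trim65.

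Of the 3 chromatin-bound members 1 was lower and the other two were not called over all 6 libraries. Trim28, also called KAP1, is the corepressor that KRAB zinc finger proteins bring to retroelements and other loci. Trim28 (ENSMUSG00000005566.14, chromosome 7, 12999114 to 13031035) stood at 25, 23.3 and 23.6 CPM in the controls and at 29.6, 30.4 and 23.6 CPM in the libraries labelled RhoA knockout. Knockout replicate 3 lay within the control range and the other libraries of its group above it (log2 fold change 0.22 ± 0.13, SE; edgeR adjusted p = 0.189, and 0.0423 without that library). Trim33, a relative that binds Smad4 and acts in blood cell formation, stood at 4.82, 3.06 and 4.02 CPM in the controls and at 2.12, 1.6 and 2.2 CPM in the others, with no overlap. Its log2 fold change was -1.01 ± 0.28 (SE, edgeR adjusted p = 0.0106). The call was lost without control replicate 1, with an adjusted p of 0.0584, and with the length correction, at -0.55 and an adjusted p of 0.142. Trim24, the third of the trio, was at -0.70 ± 0.58 (SE, adjusted p = 0.367), and at -1.35 without knockout replicate 1.

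Trim8 (ENSMUSG00000025034.9, chromosome 19, 46501702 to 46516848), a ligase of tumour necrosis factor and interleukin-1 signalling, stood at 8.86, 7.84 and 7.82 CPM in the controls and at 4.79, 3.01 and 3.89 CPM in the libraries labelled RhoA knockout. The tight controls all lay above the other group, for a log2 fold change of -1.07 ± 0.21 (SE, edgeR adjusted p = 0.00125). Trim3, an NHL-repeat member, stood at 8.06, 7.65 and 7.18 CPM in the controls and at 3.92, 5.36 and 2.58 CPM in the others. Here the libraries labelled RhoA knockout were the more scattered, and the highest of them still lay below the controls (log2 fold change -0.95 ± 0.25, SE; edgeR adjusted p = 0.00852, and 0.0732 with library totals alone). Trim45, with a filamin-type repeat, stood at 1.48, 1.5 and 1.26 CPM in the controls and at 0.792, 0.57 and 0.408 CPM in the others. Its log2 fold change was -1.26 ± 0.43 (SE, edgeR adjusted p = 0.032), and the call was kept under 7 of 15 alternative fits only. It was lost without control replicate 1 or 2, without knockout replicate 2 or 3, without both libraries numbered 3, with library totals alone, with no low-count filter and with the length correction, with an adjusted p of up to 0.0954.

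The remaining members were not called. Trim32, an NHL-repeat ligase known from muscular dystrophy, was at -0.04 ± 0.30 (SE, log2 fold change) and Trim2, which acts on neurofilament light chain, at 1.06 ± 1.15. Trim2 rested on 8, 33 and 0 counts in the controls, and its value was 3.04 without control replicate 2. Among microtubule-linked members with a COS box, Trim46 was at -0.78 ± 0.34 (SE, edgeR adjusted p = 0.0833, and 0.0375 without control replicate 2) and Trim36 at -0.05 ± 0.58. Trim46 shares 239 bp of exon with Krtcap2 on the opposite strand, which held up to 84.8 times its counts. The membrane-anchored Trim13 and Trim59 were at 0.35 ± 0.36 and -0.05 ± 0.42. Trim37, a MATH-domain ligase of centrosomes and peroxisomes, was at -0.29 ± 0.29, and Trim44, which has B-box but no RING, at -0.01 ± 0.26. Trim23, whose C-terminus is itself an ARF-type GTPase, was at -0.43 ± 0.82. Its control replicate 2 stood at 1.64 CPM against 0.35 and 0.102 in the other controls, and without that library the value was 1.15 with an adjusted p of 0.341.

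Compared per kilobase of exon, the order of the family differed between the groups. In the controls Trim30a was first at 10.9 ± 2.54 CPM per kb (SD, n = 3), followed by Trim25 at 6.28 ± 0.688 and Trim28 at 5.76 ± 0.213, and the last pair did not differ beyond its spread. Trim35 at 3.8 ± 0.469 and Trim8 at 2.2 ± 0.161 came next. In the libraries labelled RhoA knockout Trim28 led at 6.7 ± 0.889 CPM per kb (SD, n = 3) and Trim35 followed at 5.26 ± 0.235. Trim30a at 1.84 ± 0.26, Trim27 at 1.59 ± 0.166 and Trim25 at 1.29 ± 0.161 came after them. Trim30d moved from place 7 to place 30 of 31. These levels are means of TMM-scaled CPM divided by the summed exon length of the gene, which takes all annotated exons as used.

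**Figure D3:**
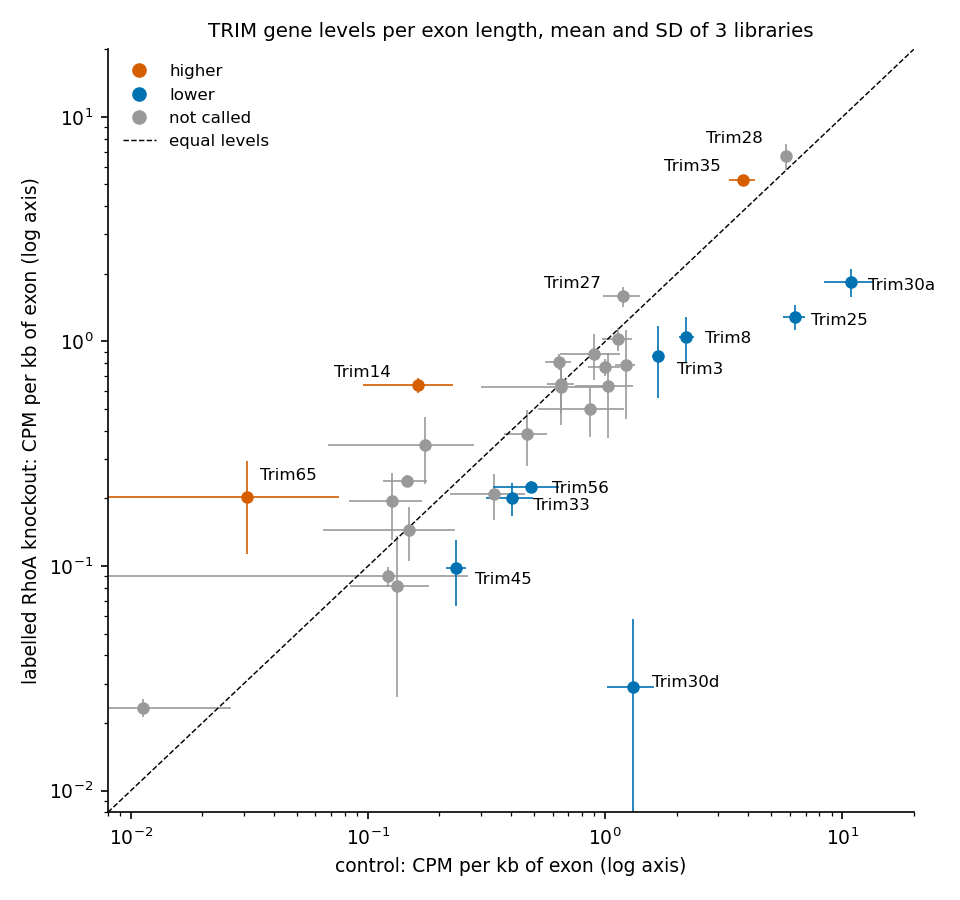
Level of each TRIM gene per kilobase of exon, control libraries on the x axis and libraries labelled RhoA knockout on the y axis, both log axes, as mean and SD of 3 libraries, with bars cut at the axis limits and the dashed line at equal levels. Trim30a and Trim25, the 2 highest in the controls, lie far below the line, Trim30d lies lowest relative to it, and Trim28 and Trim35 lie a little above it.

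Exon length went with the direction of change over all genes. In the shortest of 5 equal groups, 53 to 1750 bp, the median log2 fold change was 0.32, and in the longest, 6975 to 123179 bp, it was -0.47. The 31 TRIM genes had a median exon length of 4569 bp against 3856 bp for all genes tested, and 6 of them lay in the longest group and 1 in the shortest. Trim56 and Trim33 are in the longest group and Trim45 in the one before it, where the median of all genes was -0.19. These were the 3 falls lost with the length correction. The calls of Trim25, Trim30a, Trim30d, Trim3, Trim8, Trim14, Trim35 and Trim65 were kept with it.

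**Figure D4:**
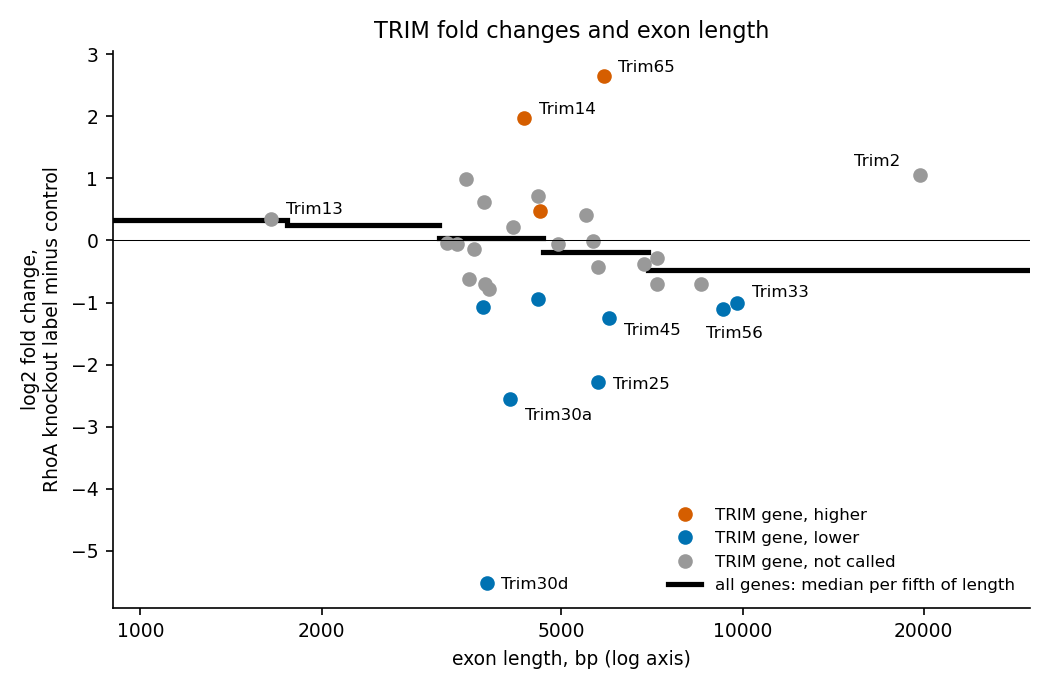
Log2 fold change of the 31 TRIM genes against exon length in bp (log axis), coloured by call, with black lines for the median of all genes tested in each of 5 equal groups by exon length, drawn within the axis limits. The line steps from 0.32 for the shortest genes to -0.47 for the longest, Trim56 at -1.11 and Trim33 at -1.01 lie below it, and Trim30d, Trim30a and Trim25 lie farther below it.

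The genes that work with TRIM proteins are given from lists chosen for their known roles, but with earlier results of these data known. Of 16 genes of RIG-I-like receptor and IRF signalling, 7 were lower, 1 higher and 8 not called. That is 50% called against 43.2% of all genes tested, with a median of -0.41 against -0.03. The 1 rise, of Irf3 at 0.46, was lost without control replicate 1 or 2, without knockout replicate 2, with the replicate block and with the length correction, each of which leaves 0. Irf7, the interferon-amplifying factor that Trim35 acts on, fell from 155 ± 8.86 CPM (SD, n = 3) in the controls to 22.5 ± 1.63 CPM. Ddx58, the gene of RIG-I, fell from 21.4 ± 2.36 to 3.77 ± 0.704 CPM. Zbp1 and Dhx58, sensors of viral nucleic acid, had log2 fold changes of -3.83 and -2.14. The adaptor gene Mavs, named here for its link to Trim14, was at 0.11 and did not pass the test. Trim25 and its target gene Ddx58 thus were both lower, at -2.29 and -2.51, while Trim14 was higher and its partner Mavs was not called. Trim65 and Trim35 were higher, while Ifih1, the gene of MDA5, was lower at -2.15 (edgeR adjusted p = 3.77e-06), as was Irf7. The rises of Trim14 and Trim65 carry the limits given above, namely exons shared with Nans and with Trim47, and for Trim65 a call lost under several fits. Whether ligase and target genes move together was not tested.

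Of 24 measured interferon response genes 23 were lower by edgeR and by DESeq2, with a median of -2.21. By edgeR 22.3% of all genes tested were lower. No gene of the list was higher by either test, none having an unadjusted p under 0.05 in that direction. Rsad2, Xaf1, Ifit2 and Usp18 had log2 fold changes of -5.70, -3.57, -4.39 and -2.18. Trim25 and Trim30a lay near this median, Trim30d near its lowest value of -5.70, and Trim56 at -1.11 above it, whereas Trim12c and Trim21 were not called and Trim14 was higher. TRIM genes under other names were sparse. Pml, the nuclear body ligase, stood at 6.29, 4.37 and 6.07 CPM in the controls and 4.68, 3.77 and 3.3 CPM in the others (log2 fold change -0.51 ± 0.23, SE; edgeR adjusted p = 0.0942). Mid1 was at 0.36 ± 1.19, and Mid2, Mefv and Cmya5 held 0 counts in every library, so that of 5 such genes none was called by edgeR or DESeq2, with 1 at an unadjusted p under 0.05, and 1 lower without control replicate 2.

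Of 13 E2 enzymes 5 were higher and 3 lower, 61.5% called against 43.2% of all genes tested, with a median of 0.01. The pair that builds K63-linked chains with many TRIM ligases, Ube2n and Ube2v1, both rose. Ube2n stood at 28.3 ± 2.9 CPM (SD, n = 3) in the controls and 70.4 ± 3.27 in the others, and Ube2v1 at 236.7 ± 8.98 and 612.8 ± 81.97. Ube2v2, its alternative partner, rose by 0.82 on the log2 scale, and Ube2l6, the E2 of the ubiquitin-like ISG15, fell from 513.0 ± 44 to 175.1 ± 9.73 CPM. Of 13 partners of the chromatin-bound members 4 were higher and 3 lower, 53.8% called, with a median of 0.38. With the length correction 7 of these partners were higher. Smad4, which Trim33 binds, was at -1.25 ± 0.21 (SE, log2 fold change), near Trim33 itself. The other Smad genes of the list did not follow it. Smad3 was higher at 2.31 ± 0.54 (SE, edgeR adjusted p = 0.00431), from a low level of 0.273 CPM in the controls. Smad2 was at -0.25 and did not pass the test. RNA of Cbx3 and Cbx5, genes of heterochromatin proteins that Trim28 recruits, rose by 1.60 and 0.66, and that of the deacetylase gene Hdac1 by 0.58. The deacetylase gene Hdac2 went the other way, at -1.02 (edgeR adjusted p = 0.00447). As a comparison family of RING ligases, 61 measured genes whose symbol begins with Rnf and a digit were 17 lower and 7 higher, 39.3% called, with a median of -0.18. Rnf213 and Rnf149, which fell by 2.54 and 1.96 on the log2 scale, were among them, with Rnf115 at -1.81 and Rnf11 at -2.26. The share of TRIM genes called was 35.5%, and the difference was not tested.

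**Figure D5:**
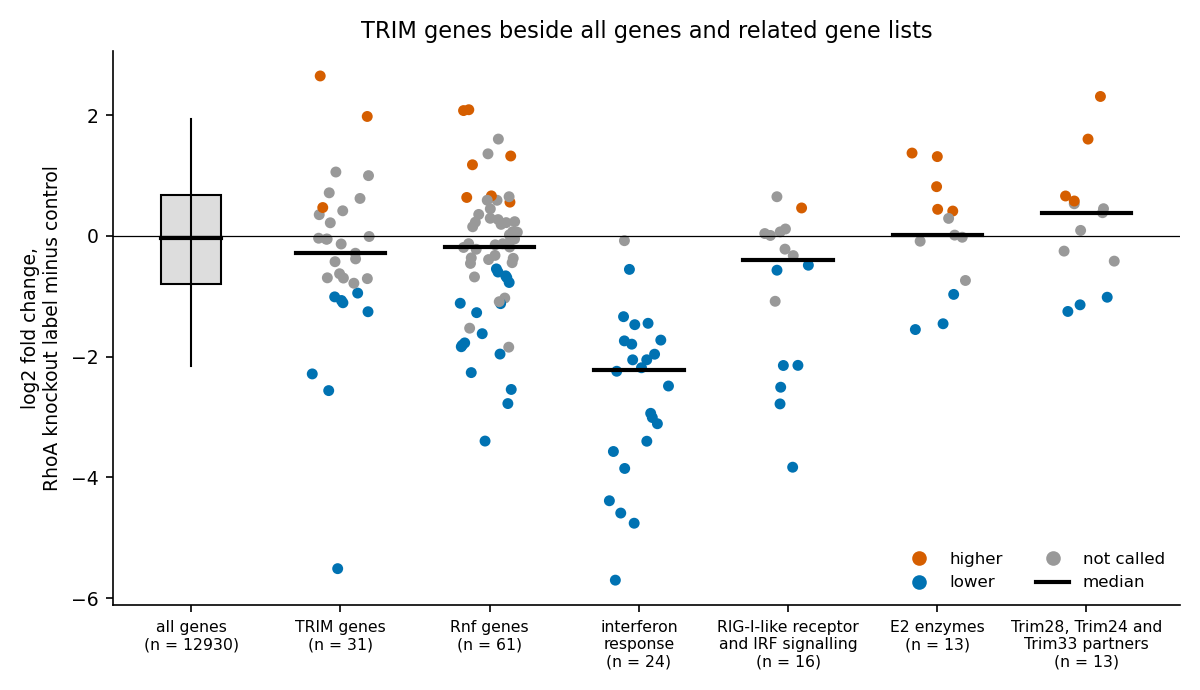
Log2 fold change, libraries labelled RhoA knockout minus control, of the TRIM genes beside all genes tested (box: middle 50% of genes, line through it: median, whiskers: percentiles 5 and 95) and beside 5 lists, each point 1 gene coloured by its call and each bar a median. The TRIM median is -0.29, that of all genes -0.03 and that of the Rnf genes -0.18, and the interferon response list lies lower at -2.21.

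The 37 members under the level filter had few or no counts, and their counts are given without a test. Of these, 23 had no count in any library, among them Trim6, Trim9, Trim10, Trim12a, Trim31, Trim38, Trim40, Trim54, Trim55, Trim63 and Trim71, and 14 had 1 or more. The highest count among the latter was 73, for Trim47 in knockout replicate 2. Just below the limit were Trim47 and Trim34b, each at 0.5 CPM in 2 libraries, and just above it Trim2 and Trim23, each at 0.5 CPM in 1 control and 2 other libraries. In all, 20 members were at 0.5 CPM in all 6 libraries, of which 6 were lower and 1 higher. That is 35% called, against 43.2% of all genes tested.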

How the data were processed

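Libraries were made from Trizol-extracted total RNA using an Illumina TruSeq kit, per the labels' protocols. The authors deposited 1 table of whole-number counts per gene, without normalization. The build is GRCm38, per the submitters' processing notes, and the aligner, the counter, its strand setting and its treatment of multiply matching reads: not given in the sources used here. All 6 value columns were matched to samples by name. GENCODE M21 gave a symbol for 55227 gene IDs and none for 260.

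Groups were compared with edgeR (4.0.16, R 4.3.3), using filterByExpr, TMM factors, a robust glmQLFit and glmQLFTest over 12930 genes, with Benjamini-Hochberg adjustment at 0.05. The common biological coefficient of variation was 0.323. An SE is the size of a log2 fold change over the root of its F. CPM are TMM-scaled, except that the 0.5 CPM rule uses library totals. Matching genes were sought with blastn 2.17.0 at 95% identity over 200 bp. Alternatives were DESeq2 1.42.0, other scalings and filters, a replicate block, a length correction, and libraries left out. The fit was tested on simulated data with 200 changed genes per set, balanced in direction, far fewer than were called here. That test therefore does not cover the shifts in library composition between these groups. Intervals and floors cover counting error only.

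All described members, Rhoa and, from each list, up to 4 called genes ordered by p (or the 2 of highest level where none was called) are named by rule. Nans, Krtcap2, Rack1, Mavs, Irf3, Ifih1, Hdac2, Smad2, Smad3 and the marker genes are named outside it, as are the per-library values of Trim12c, Trim21 and Pml. Members and lists were chosen with earlier results of these data known.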

Additional observations from a re-analysis of the deposited data

How the results depend on the processing

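Of the 11 called members, 6 were called under every one of 15 alternative fits (Trim14, Trim25, Trim30a, Trim30d, Trim35 and Trim8), and of the 20 others 17 were called under none. The median log2 fold change of the members, -0.29, was -0.0896 with library totals alone, -0.63 with a gene filter at 1 CPM in 3 libraries (25 members), -0.13 with the replicate block, -0.15 with the length correction, -0.41 with both libraries numbered 3 left out, -0.63 for members at 1 CPM in 3 libraries and -0.50 for those at 0.5 CPM in all 6. Leaving out 1 library gave -0.47 to -0.24, 2 to 3 members higher and 6 to 8 lower. With the length correction 5 members were lower and 7 corepressor partners higher. Without that correction, 1 of the members at 0.5 CPM in all 6 libraries was higher. Among the receptor and IRF signalling genes 2 were higher with library totals alone, 0 with the replicate block and 0 with the length correction, and 0 to 1 without 1 library. Of the TRIM genes under other names, 0 to 1 were lower without 1 library. Rhoa was at 0.34 to 0.45 without 1 library, with an adjusted p of 0.0645 without control replicate 1 and 0.0741 without knockout replicate 1. The cause of these shifts was not tested. Deviations from the group mean had r of -0.00595, 0.0277 and 0.0137 across genes between same-numbered libraries. Between differently numbered libraries r was -0.0521 to 0.0393. With 3 libraries per group these values cannot exclude a pairing by number. With the replicate block 3 members were higher and 8 lower, as without it, and all 11 calls were shared. Trim65 was at 3.60 with the block and Trim2 at 2.15. The promoter letters with a C added after the second GAAA were found in 4 of 22 members, as were the shorter letters in the 250 bases before the start. Levels under about 1 CPM rest on few counts, which limits Trim2, Trim21, Trim23, Trim36, Trim45, Trim65 and Trim68. The same holds for Trim14 and Trim16 in the controls and for Trim24 and Trim30d in the libraries labelled RhoA knockout.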

Other observations

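Some members under the level filter had counts in 1 library alone. Trim43a held 60 counts in control replicate 1 and 0 in the other 5 libraries, Trim17 held 21 in knockout replicate 2 only, and Trim29 held 22 in knockout replicate 3 only. These members were chosen after their values were seen. The epithelial genes Epcam, Krt8 and Krt18 likewise stood at 0.505, 0.311 and 0.622 CPM in control replicate 1 and at 0 elsewhere. Trim7, a PRY-SPRY member also chosen after its values were seen, held 4, 4 and 14 counts in the controls and 41, 31 and 26 in the libraries labelled RhoA knockout, and was at 0.5 CPM in 1 library. Trim34b held 44, 29 and 50 counts in the controls and 32, 23 and 10 in the others, and Trim34a held 14, 22 and 17 against 38, 8 and 12, with groups that overlapped in counts at both. Scaled to library totals, the groups of Trim34a overlapped, and those of Trim34b did not, at 0.482 to 0.756 CPM in the controls and 0.122 to 0.446 CPM in the others.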
